A study of Mus musculus with 4 samples.

Results

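The azurophil granule genes of granulocyte/monocyte progenitors (GMP) were followed in Icsbp-deficient and wild type mice. They are the 7 genes Mpo, Elane, Prtn3, Ctsg, Ms4a3, Nkg7 and Srgn, and their probe sets were taken by gene symbol in the platform annotation of both array types. Each of the 7 genes had 1 probe set, present on both array types, and all 7 were among the 7820 genes tested. Icsbp (Irf8) belongs to the interferon regulatory factors, which bind DNA and control transcription in blood cells. GMP are bone marrow cells that give rise to granulocytes and monocytes, and here they were sorted by flow cytometry from mice aged 10 to 16 weeks. The groups were 2 Icsbp-deficient and 2 wild type preparations, with 1 preparation of each genotype hybridised to an Affymetrix 430A array and 1 of each to the larger MOE430_2 array. Every preparation was pooled, from at least 8 Icsbp-deficient or at least 10 wild type mice, so the spread between single animals was not measured. The wild type 430A sample carries no genotype in its own label, which gives a mixed C57/Bl6 and S129Ola background, and its group rests on the series' design text. Neither the background of the other mice nor the form of the Icsbp allele is stated in the labels.

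Azurophil granules, also called primary granules, are the storage organelles that form earliest in the neutrophil lineage, at the promyelocyte stage that follows the GMP. Myeloperoxidase, encoded by Mpo, is a haem enzyme that makes hypochlorous acid from hydrogen peroxide and chloride. Neutrophil elastase (Elane), proteinase 3 (Prtn3) and cathepsin G (Ctsg) are serine proteases that are stored active in the granule and kill ingested microbes. Serglycin (Srgn) is the proteoglycan core protein whose negatively charged chains hold such basic proteins in granules. Ms4a3, a membrane protein, is a known marker of GMP, and Nkg7 is a granule membrane protein best known from natural killer and cytotoxic T cells. The last 2 genes are therefore not established azurophil contents, and the name of the set is loosest for them.

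The starts of the 4 genes for the enzymes stored in the granule are shown because these genes had the highest and most similar signals of the set. Sequences are from RefSeq on GRCm38.p6, 250 bases before to 50 after the start of the gene, 5′ to 3′ on the coding strand. They lie at chr10:79886062-79886361 (Elane, plus strand), chr10:79879417-79879716 (Prtn3, plus strand), chr11:87793534-87793833 (Mpo, plus strand) and chr14:56102525-56102824 (Ctsg, minus strand). Capitals mark AGGAAGT, a sequence bound by ETS factors such as PU.1, and AACGG, a core of Myb sites.
Elane: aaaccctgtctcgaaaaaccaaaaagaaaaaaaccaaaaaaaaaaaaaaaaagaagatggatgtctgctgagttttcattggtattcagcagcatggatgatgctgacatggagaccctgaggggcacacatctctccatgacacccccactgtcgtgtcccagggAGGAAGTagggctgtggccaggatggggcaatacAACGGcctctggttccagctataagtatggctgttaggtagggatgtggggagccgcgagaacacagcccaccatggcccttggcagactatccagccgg
Prtn3: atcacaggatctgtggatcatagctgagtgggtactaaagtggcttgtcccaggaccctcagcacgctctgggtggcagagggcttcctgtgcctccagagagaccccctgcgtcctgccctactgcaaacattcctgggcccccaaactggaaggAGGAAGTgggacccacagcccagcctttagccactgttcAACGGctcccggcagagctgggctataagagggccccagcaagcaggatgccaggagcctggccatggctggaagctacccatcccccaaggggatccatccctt
Mpo: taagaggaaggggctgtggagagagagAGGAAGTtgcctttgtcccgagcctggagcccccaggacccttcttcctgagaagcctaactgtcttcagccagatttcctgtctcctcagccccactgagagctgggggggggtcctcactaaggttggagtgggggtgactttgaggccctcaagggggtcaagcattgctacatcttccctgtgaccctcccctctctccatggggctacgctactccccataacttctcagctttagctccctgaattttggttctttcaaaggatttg
Ctsg: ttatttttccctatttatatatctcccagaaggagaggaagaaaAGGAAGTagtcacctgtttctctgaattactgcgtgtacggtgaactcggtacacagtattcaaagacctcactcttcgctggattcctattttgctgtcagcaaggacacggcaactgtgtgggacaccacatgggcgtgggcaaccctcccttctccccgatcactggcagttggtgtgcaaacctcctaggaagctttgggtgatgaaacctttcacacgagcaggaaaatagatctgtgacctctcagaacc

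All 7 genes were found in the promoter table, with 8 windows, since Srgn has 2 starts. The letters AGGAAGT, searched on both strands, were present in the windows of Elane, Prtn3, Mpo and Ctsg and in none of the other 4, against 9.35% of the 32851 windows in the table. The match ran from base -84 to -78 in Elane, -94 to -88 in Prtn3, -223 to -217 in Mpo and -206 to -200 in Ctsg, counted from the start of the gene. AACGG was in the windows of Elane (-50 to -46) and Prtn3 (-55 to -51), and in 17.4% of all windows. Both sequences together were in 1.52% of windows, and Elane and Prtn3 were the members that had both, in the same order. The other motifs searched were GCAAT, a core of C/EBP sites, found in Elane, Mpo and Ms4a3 (26.4% of all windows), TTGC and AA spaced by any 2 bases, a longer C/EBP form that can overlap it, found in Ms4a3 (10.8%), and TGTGGT, bound by Runx factors, found in Nkg7, Ctsg and 1 window of Srgn (16.8%). The composite of GGAA and GAAA spaced by any 2 bases, which PU.1 binds together with Irf8 or Irf4, was in 0 of the 8 windows. It was in 2.72% of all windows, too rare for its absence from 8 windows to say anything about Irf8 and these genes. These motifs were chosen after the sequences had been seen, and a match of letters is not evidence of binding.

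Irf8 and the markers of GMP and other cells were read first, as signals scaled to a common trimmed mean (430A, then MOE430_2). All 8 GMP markers were measured above the 40th percentile of each array, and 3 rose, 1 fell and 4 did not pass. Beside this and the marker counts below, 4.12% of all tested genes were called higher and 3.29% lower. Fcgr3 (1.00 ± 0.11), Cebpa (0.69 ± 0.12) and Csf2ra (0.55 ± 0.13) rose, Cd34 fell by 1.73 ± 0.13 on the log2 scale, and Kit, Csf1r, Csf3r and Il6ra did not pass. Irf8 was still read on the Icsbp-deficient arrays, at 2776 and 2725 against 3059 and 4798 in wild type GMP for the probe set with the higher mean (log2 ratio -0.48 ± 0.15, adjusted p = 0.091 by limma over all genes). Its other probe set had 3234 and 1892 against 3074 and 1847. The labels do not say which part of Irf8 was deleted, so these probe sets do not check the labels. Of 13 measured natural killer and T cell markers, where Nkg7 is also active, 11 to 13 were under the 40th percentile on each array, and their summed signal was 729 and 247 in Icsbp-deficient against 644 and 312 in wild type GMP. Of 11 later neutrophil markers 9 rose, with summed signals of 35683 and 67890 against 11839 and 21449. In wild type GMP 2 and 1 of these markers were under the 40th percentile, against 1 and 0 in Icsbp-deficient GMP. A marker can thus have passed the filter on low signals through Icsbp-deficient GMP, and this count is a description. All 8 tested markers of eosinophils, basophils and mast cells fell, with summed signals of 2404 and 2268 against 6475 and 8964, and Cma1 and Tpsb2 at or under 159 on every array. Some of these markers passed the filter on low signals through wild type GMP (5 of the 10 measured were under the 40th percentile on the Icsbp-deficient MOE430_2 array, against 2 on the wild type one), so their count is a description. The erythroid markers had summed signals of 729 and 232 against 1518 and 2013, with Car1 (-2.37) and Car2 (-2.21) called lower of 5 tested. Car1 had 43.1 and 2.5 against 202 and 473, so its ratio depends on the offset. Of the 6 measured erythroid markers 5 were under the 40th percentile on the Icsbp-deficient MOE430_2 array, against 2 on the wild type one. This count too is a description. The megakaryocyte and platelet markers had 815 and 406 against 1124 and 633, with Itga2b (-0.86) called lower of 4 tested. The part of these shifts in the members' ratios was not tested. In such bulk samples fewer cells of a type and less RNA per cell cannot be told apart.

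The probe sets for these genes were among the brightest on every array. Signals are given after scaling, which brings the trimmed mean of every array to 500 over the 22626 shared probe sets, and ranks count from the highest of these. Mpo ranked 8 and 2 on the Icsbp-deficient 430A and MOE430_2 arrays, and 1 and 4 on the wild type arrays. Elane ranked 40 and 13 in Icsbp-deficient GMP and 24 and 41 in wild type GMP. Neither genotype was ahead on both array types for Mpo or Elane. Prtn3 ranked 30 and 45 in Icsbp-deficient and 23 and 47 in wild type GMP, and Ctsg ranked 18 and 24 against 25 and 22. Srgn ranked 144 and 89 in Icsbp-deficient GMP and 167 and 108 in wild type GMP, and Ms4a3 ranked 126 and 162 against 144 and 186. These ranks were nearer the top in Icsbp-deficient GMP on both array types for Srgn and for Ms4a3. Nkg7 ranked lowest of the set, at 480 and 655 in Icsbp-deficient and 375 and 473 in wild type GMP, and it alone was further from the top in Icsbp-deficient GMP on both array types. A rank compares probe sets, which differ in how well they bind, and is not a measure of transcripts per cell.

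**Figure D1:**
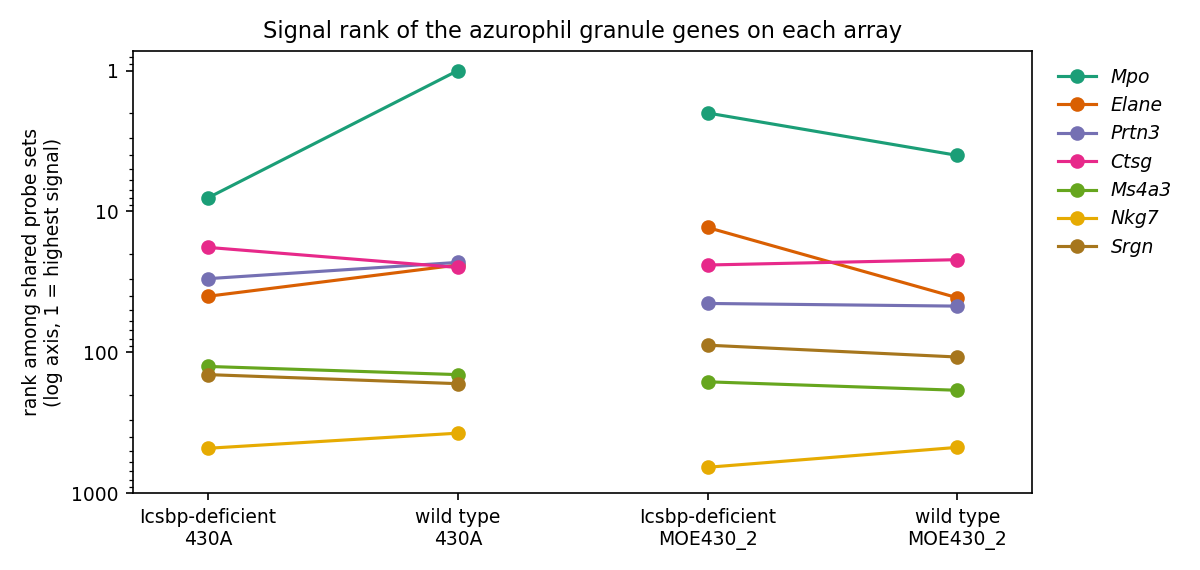
Rank of each gene's probe set by deposited signal on the 4 arrays (log axis, 1 is the highest of 22626), with a line joining the genotypes of an array type. Mpo lies between 1 and 8 on all arrays, and Nkg7, between 375 and 655, is further from the top in Icsbp-deficient GMP on both types.

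The 4 enzyme genes shared the top of the arrays mainly with genes of the translation machinery, among the probe sets that carry a single gene symbol. Of the 28 probe sets among the highest 50 on all 4 arrays, 14 had a single gene symbol. These were Mpo, Elane, Prtn3, Ctsg and 10 others, of which 8 encode ribosomal proteins (such as Rplp2, Rpl4 and Rps28) and the rest are Eef1a1, a translation elongation factor, and Tpt1. By mean absolute difference in log2 signal over the 4 arrays, the genes nearest to Mpo were Eef1a1 (0.08), Tpt1 (0.10) and Rplp2 (0.11). Those nearest to Elane were Rps28 (0.05), Rpl7a (0.06) and Rpsa (0.07), those nearest to Prtn3 were Rpl7a (0.04), Rpsa (0.05) and the actin gene Actb (0.05), and those nearest to Ctsg were Rps28, Rpsa and Rpl4 (0.04 to 0.05). Signals crowd together at the top of the range, so small differences there are shared by many probe sets, and these distances compare different probe sets and only describe signal level. The 7 members together held 0.573% and 0.902% of the summed signal on the Icsbp-deficient 430A and MOE430_2 arrays, and 0.574% and 0.778% on the wild type arrays.

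No member passed the test for a difference between the genotypes. A ratio sets Icsbp-deficient GMP over wild type GMP, on the log2(signal + 50) scale and after quantile normalization within each array type, and the test (limma, array type as a block, threshold 0.05 after Benjamini-Hochberg adjustment) asks whether the ratios of both array types together differ from 0. Of the 7 genes 0 were called, where 7.4% of the 7820 tested genes were called (4.12% higher and 3.29% lower). At that share, 0 calls in a set of this size is no result about the set. At an unadjusted p under 0.05 there was 1 member, Nkg7, against 1665 of all tested genes. The members' median ratio was 0.01, beside -0.01 for all tested genes. With scaling and no quantile normalization these medians were 0.17 and -0.02. All 7 lie at the high end of the plot of ratio against signal.

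**Figure D2:**
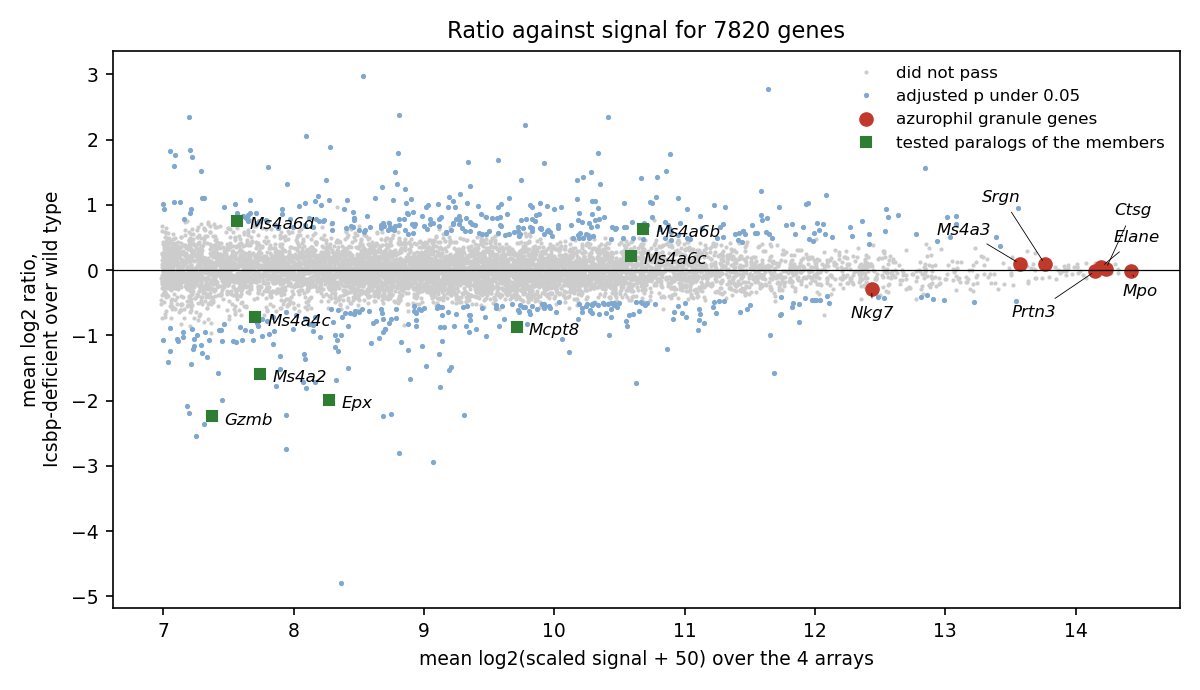
Mean log2 ratio (Icsbp-deficient over wild type) against mean log2 signal for 7820 genes, with the 7 azurophil granule genes as red circles and their 8 tested paralogs as green squares. The members lie between -0.29 (Nkg7) and 0.10 at the right, and the paralogs lie between -2.24 (Gzmb) and 0.76 (Ms4a6d) at lower signal.

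Mpo, the peroxidase, had scaled signals of 16226 in Icsbp-deficient and 17222 in wild type GMP on the 430A arrays, and 32707 against 27203 on the MOE430_2 arrays. The Icsbp-deficient signal was thus the lower on the 430A type and the higher on the MOE430_2 type. The normalized ratio of Mpo was -0.10 on 430A and 0.06 on MOE430_2, with a mean of -0.02 ± 0.08 (moderated standard error, n = 2 array types). Its 95% interval ran from -0.19 to 0.15 (adjusted p = 0.911). The standard error of Mpo was 0.14 with scaling alone and with no intensity trend, and 0.12 with no filter on low signals. With cyclic loess it was 0.08, so the width of the interval depends on these choices.

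None of the 3 serine proteases passed. Elane had signals of 13745 in Icsbp-deficient and 14243 in wild type GMP on 430A and 29138 against 21387 on MOE430_2. Its ratios were -0.09 and 0.18, with a mean of 0.05 ± 0.09, an interval from -0.15 to 0.24 and an adjusted p of 0.804. The order of the genotypes differed between array types for Elane as it did for Mpo. Prtn3, whose gene stands beside Elane on chromosome 10, had 14256 in Icsbp-deficient and 14313 in wild type GMP on 430A and 25229 against 20909 on MOE430_2. Its mean ratio was -0.02 ± 0.08 (-0.19 to 0.15, adjusted p = 0.928). The normalized ratios of Prtn3 were -0.04 on 430A and 0.01 on MOE430_2, again of opposite sign. Ctsg had 14997 in Icsbp-deficient and 14224 in wild type GMP on 430A and 27587 against 22956 on MOE430_2. Its ratios were 0.04 and -0.01, and the mean was 0.01 ± 0.08 (-0.15 to 0.18, adjusted p = 0.932). Ctsg was higher in scaled signal in Icsbp-deficient GMP on both array types, and its normalized ratios had opposite signs.

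Srgn and Ms4a3 had positive ratios on both array types and did not pass. Srgn, the granule proteoglycan, had 10285 in Icsbp-deficient and 8996 in wild type GMP on 430A and 22175 against 17821 on MOE430_2. Its mean ratio was 0.09 ± 0.08, with an interval from -0.09 to 0.27 and an adjusted p of 0.579. For Ms4a3, the GMP marker, the signals were 10781 in Icsbp-deficient and 9857 in wild type GMP on 430A and 16513 against 12657 on MOE430_2. Its mean ratio was 0.10 ± 0.09 (-0.09 to 0.28, adjusted p = 0.572). For both genes the Icsbp-deficient signal was the higher on each array type, and the interval of the mean ratio included 0.

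**Figure D3:**
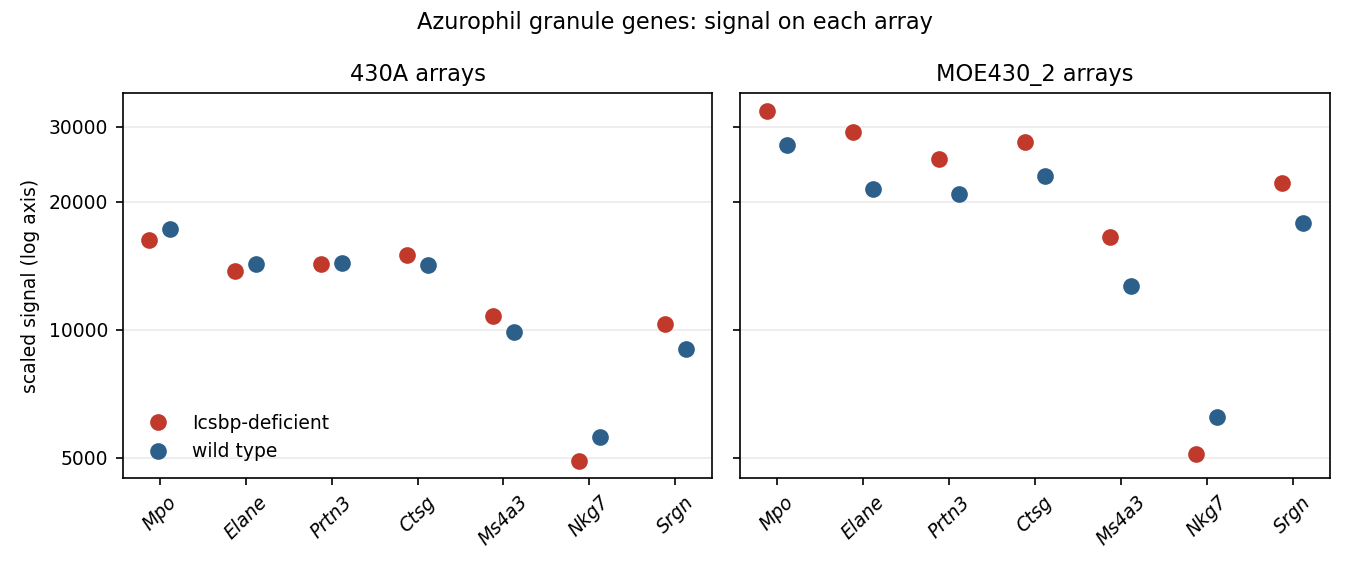
Scaled signal (log axis) of the 7 genes on the 430A arrays and on the MOE430_2 arrays, Icsbp-deficient in red and wild type in blue, 1 array per point. On MOE430_2 the red point is the higher for 6 genes and the lower for Nkg7, and on 430A it is the higher for Ctsg, Ms4a3 and Srgn.

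Nkg7 was the member with the lower signal in Icsbp-deficient GMP on both array types, and it did not pass. Its signals were 4919 in Icsbp-deficient and 5599 in wild type GMP on the 430A arrays, and 5103 against 6228 on the MOE430_2 arrays. The normalized ratios were -0.22 and -0.37, with a mean of -0.29 ± 0.10 (1.23-fold lower) and a 95% interval from -0.52 to -0.07. The unadjusted p was 0.0153 and the p adjusted over all genes was 0.12, so this difference did not pass. In deposited signals without offset or normalization, the log2 ratio of Nkg7 lay 0.22 under the median of the other 6 members on 430A and 0.58 under it on MOE430_2 (-0.22 and -0.58). For each of the other members the distance was between -0.12 and 0.22 on 430A and between -0.03 and 0.18 on MOE430_2. On MOE430_2 the ratio moves with signal level, with a median of 0.23 over the brightest 189 probe sets and -0.01 over all in deposited signals, and Nkg7 is dimmer than the other members. After quantile normalization the distance of Nkg7 was -0.22 on 430A and -0.43 on MOE430_2. These distances were computed after Nkg7 had been seen to stand apart, and they have no test.

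The sign of the small ratios depended on how the arrays were put on a common scale, and this bears on the MOE430_2 arrays most. With scaling to the trimmed mean and no quantile normalization, the MOE430_2 ratios of the members were 0.27 for Mpo, 0.45 for Elane, 0.27 for Prtn3, 0.26 for Ctsg, 0.38 for Ms4a3 and 0.31 for Srgn, against -0.28 for Nkg7. On the 430A arrays they were -0.09, -0.05, -0.01, 0.08, 0.13, 0.19 and -0.19 in the order Mpo, Elane, Prtn3, Ctsg, Ms4a3, Srgn and Nkg7. The brightest probe sets as a whole moved in the same way. For the 189 probe sets whose mean rank over the 4 arrays was at most 200, the median ratio with scaling alone was 0.25 on MOE430_2 and 0.07 on 430A, against -0.01 on each type after quantile normalization. On MOE430_2 all members but Nkg7 lay above that median with scaling alone, Elane and Ms4a3 furthest, and Nkg7 lay below it. Between 27 and 47 probe sets on each array had over 80% of the array's highest signal, and Mpo reached 96.7% to 100% of it. Whether the scanner's range limited these signals was not tested.

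**Figure D4:**
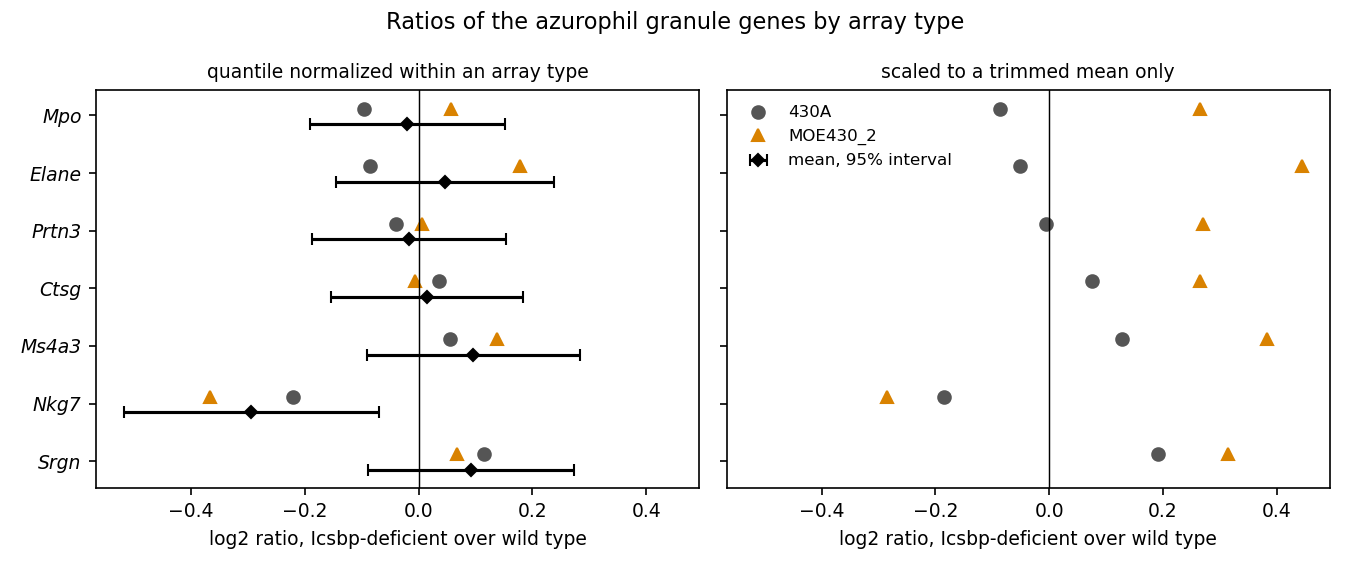
Log2 ratio of each gene on the 430A arrays (circles) and MOE430_2 arrays (triangles), after quantile normalization (left, with the mean and its 95% interval as diamonds and bars) and after scaling alone (right). The MOE430_2 triangles of 6 genes move right, to between 0.26 and 0.45, with scaling alone, while Nkg7 stays below 0 in both panels.

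Lysozyme genes and Cd68 rose among other genes of the primary granule. In a list of 12 such genes 7 were measured on both array types and tested, of which 3 rose and 0 fell, with a median ratio of 0.28. Over all tested genes 4.12% were called higher and 3.29% lower. The list was chosen with earlier results of these data known, so its count is a description. Lyz2, the macrophage and neutrophil lysozyme, rose by 1.15 ± 0.11 and its near-identical neighbour Lyz1 by 0.84 ± 0.10, and their probe sets can share targets. Lyz1 was at 1.60 with its tested probe sets averaged, and between 0.36 and 1.32 with 1 array left out, a comparison that mixes array types. The signals of Lyz2 were 6086 and 7166 in Icsbp-deficient and 2928 and 2799 in wild type GMP. Cd68, a glycoprotein of lysosomal membranes, rose by 1.03 ± 0.14. The acid hydrolases did not pass, with Gusb at -0.10, Glb1 at -0.05, Fuca1 at 0.12 and Ctsd at 0.28.

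Serpinb1a and Slpi, inhibitors of the proteases, rose, and the other tested activators and inhibitors did not pass. Of 16 listed activators and inhibitors 7 were tested, of which 2 rose and 0 fell, with a median ratio of 0.28. The share called higher over all tested genes was 4.12%. This list too was chosen with earlier results known, and its count is a description. Serpinb1a, an intracellular inhibitor of elastase, proteinase 3 and cathepsin G, had 6918 and 11199 in Icsbp-deficient and 4035 and 7705 in wild type GMP and rose by 0.55 ± 0.11 (adjusted p = 0.012). Slpi, a secreted inhibitor of elastase and cathepsin G, had 5081 and 6036 against 3184 and 3404 and rose by 0.71 ± 0.11 (adjusted p = 0.00232). Both inhibitors were thus higher on each array type, beside target proteases with mean ratios between -0.02 and 0.05. With scaling alone Elane, Prtn3 and Ctsg were at 0.20, 0.13 and 0.17, and Serpinb1a and Slpi at 0.65 and 0.74. These proteases are among the brightest probe sets, whose median ratio was -0.01 after quantile normalization, so their small ratios depend on that step. Ctsc, the protease that removes the activation dipeptide of Elane, Prtn3 and Ctsg, had 1878 and 1894 against 2184 and 3137, a ratio of -0.46 ± 0.14 (adjusted p = 0.084). Cst7, an inhibitor of Ctsc, was at 0.23 ± 0.10 (adjusted p = 0.217), and neither passed. With 1 array left out Serpinb1a lay between 0.056 (without the wild type 430A array) and 1.05 (without the wild type MOE430_2 array). Its call ended with no filter on low signals and with no intensity trend, and the difference between an inhibitor and its protease was not tested.

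Haem synthesis and the folding of myeloperoxidase had 10 tested genes, of which 0 rose and 1 fell, with a median ratio of -0.08. Since 7.4% of all tested genes were called, 1 call in a list of this size is no result about the list. Alad, the enzyme after the rate-limiting step, fell by 0.60 ± 0.15 (adjusted p = 0.0336), with 289 and 326 in Icsbp-deficient against 439 and 559 in wild type GMP. Alas1, the rate-limiting enzyme outside the erythroid lineage, was at 0.34 ± 0.10 (adjusted p = 0.063). The chaperones Calr and Canx, which bind the myeloperoxidase precursor, were at -0.17 ± 0.08 and -0.10 ± 0.10, and the disulphide isomerase Pdia3 was at 0.13 ± 0.10. Of these named genes Alad alone passed, and its call ended with no filter on low signals and with no intensity trend.

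Enzymes that build the glycosaminoglycan chains of serglycin had 13 tested genes, of which 1 rose and 0 fell, with a median ratio of 0.11. Of all tested genes 7.4% were called, so 1 call in a list of this size is no result about the list. The gene that rose was Chst15, which adds the sulphate that makes chondroitin sulphate E, at 1.14 ± 0.22 (adjusted p = 0.00987). Its signals were 401 and 362 in Icsbp-deficient and 98.3 and 217 in wild type GMP, with a larger ratio on 430A (1.60) than on MOE430_2 (0.67). Its call ended with no filter, and its ratio was 0.73 with an offset of 200 and 0.72 without the wild type 430A array. Chst12 (0.42 ± 0.13, adjusted p = 0.0864), Csgalnact2 (0.16), Ugdh (0.12) and Ext2 (-0.09) did not pass. Granule sorting and exocytosis had 12 tested genes, of which 1 rose and 0 fell, with a median of 0.09. The same share of 7.4% holds beside this count. Lyst, whose loss gives giant granules in Chediak-Higashi syndrome and in beige mice, was the gene called, at 1.37 ± 0.14 (adjusted p = 0.000269). It was at 0.98 with its tested probe sets averaged. With 1 array left out, which mixes array types, it lay between 1.04 and 1.71. Lyst had 1648 and 1970 in Icsbp-deficient against 518 and 864 in wild type GMP. The membrane fusion proteins Vamp8 at 0.00 and Stxbp2 at 0.17, and the adaptor subunits Ap3b1 at -0.06 and Ap3d1 at 0.23, did not pass.

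Transcription factors that act on primary granule genes had 11 tested members, of which 3 rose and 0 fell, with a median of 0.25. Of all tested genes 4.12% were called higher. As the list was chosen with earlier results known, its count is a description. The rises were in the C/EBP factors Cebpd (1.12 ± 0.13), Cebpa (0.69 ± 0.12) and Cebpb (0.50 ± 0.13). The call of Cebpb ended with other offsets, no filter, no trend or averaged probe sets, and that of Cebpa with no intensity trend. Cebpd was at 0.73 with averaged probe sets. With 1 array left out Cebpa lay between 0.21 and 1.17 and Cebpb between 0.26 and 0.73, the lowest without the wild type MOE430_2 array and the highest without the wild type 430A array. Myb, a known activator of the Elane promoter, was at -0.08 ± 0.09 (adjusted p = 0.68), with 8421 and 11315 in Icsbp-deficient and 8378 and 10647 in wild type GMP. Cbfb (0.05) and Gfi1 (0.31) did not pass, nor did Spi1, which encodes PU.1 and was named after its values were seen (0.25 ± 0.14, adjusted p = 0.325). Spi1 was at 0.02 on 430A and 0.49 on MOE430_2.

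**Figure D5:**
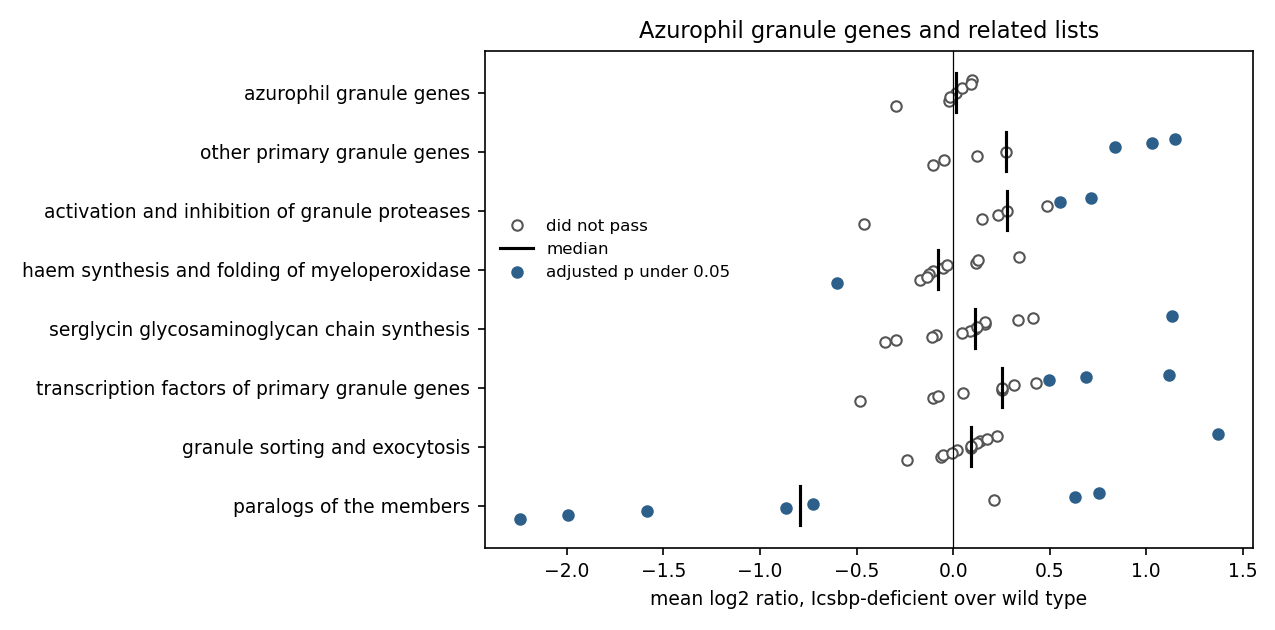
Mean log2 ratio (Icsbp-deficient over wild type) of each tested gene in the azurophil granule set and in 7 related lists, filled where the adjusted p was under 0.05, with a bar at each median. The 7 members lie between -0.29 and 0.10 with no filled point, and the paralogs reach from -2.24 to 0.76.

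Paralogs of the members, some of them neighbours in the genome, changed in both directions. Of 24 listed paralogs 8 passed the filter on low signals, of which 5 fell and 2 rose (against 3.29% and 4.12% of all tested genes). Because a low gene can pass that filter through the genotype where it is high, this count is a description. Eosinophil peroxidase (Epx), the relative of Mpo, had 192 and 48.9 in Icsbp-deficient and 304 and 1036 in wild type GMP, a ratio of -1.99 ± 0.47 (-0.56 on 430A and -3.43 on MOE430_2, adjusted p = 0.0279), and it was at -1.19 without the wild type MOE430_2 array. Lactoperoxidase (Lpo), which stands next to Mpo on chromosome 11, was at or under 25.1 on every array and was not tested (it is named as the neighbour). Among the serine proteases on chromosome 14, the basophil protease Mcpt8, next to Ctsg, had 620 and 522 against 973 and 1210, and fell by 0.87 ± 0.15 (adjusted p = 0.00708). Granzyme B (Gzmb) had 52.7 and 6.3 against 337 and 293, a ratio of -2.24 ± 0.22 (adjusted p = 0.000181). The size of this ratio depends on the offset, at -3.06 with 16 and -1.16 with 200, and is no exact fold, since the Icsbp-deficient signals were about the size of the offset of 50 or below it. The next gene on the other side of Ctsg, Gzme, was at or under 30.4 on every array. Among the Ms4a genes on chromosome 19, Ms4a2, the beta chain of the immunoglobulin E receptor and the neighbour of Ms4a3, had 129 and 35.9 against 322 and 326, a ratio of -1.59 ± 0.24 (adjusted p = 0.00271) that was -1.96 with an offset of 16 and -0.91 with 200. Ms4a6b (0.63 ± 0.13) and Ms4a6d (0.76 ± 0.19) rose, Ms4a4c fell (-0.72 ± 0.18, named after its values were seen), and Ms4a6c (0.21) did not pass. The calls of Epx and Ms4a6d ended with an offset of 16 and with no filter, that of Epx also with no trend or averaged probe sets, and that of Ms4a6b with no trend. Ms4a6d was at 0.42 with an offset of 200. Mpo, Ctsg and Ms4a3 thus had mean ratios between -0.02 and 0.10 beside paralogs or neighbours that fell. With scaling alone these 3 members were at 0.09, 0.17 and 0.26. The difference between a member and its paralog was not tested. Ms4a2, Epx and Mcpt8 are among the eosinophil, basophil and mast cell markers given with Irf8. The order of neighbouring genes is that of RefSeq on GRCm38.p6.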

How the data were processed

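RNA of 4 pooled GMP preparations was measured on 2 array types. The values the authors deposited are linear signal intensity, with 1 value per probe set. Per the submitters' processing notes, GCOS made those of the MOE430_2 arrays; other software and all settings are not stated. Per the labels' protocols, the labelling kit differed between the Icsbp-deficient 430A array and the MOE430_2 arrays, and none is named for wild type 430A. The deposited trimmed mean was 167.1 and 498.5 on the Icsbp-deficient and wild type 430A arrays, and 158.6 and 160.4 on the MOE430_2 arrays, so the 430A arrays were not on a common scale.

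Here 64 control probe sets were left out of the shared 22690, and a 2% trimmed mean of 500 was set on every array. An offset of 50 was added, log2 taken, and the 2 arrays of a type quantile normalized. The offset understates the change of dim genes. Probe sets under the 40th percentile of mean signal were left out (13576 stayed). Platform symbols (20380 probe sets with 1, 691 with several, 1555 unnamed here) were updated through RefSeq GRCm38.p6 (20351 matched). The brightest tested probe set stood for its gene, giving 7820 genes, fitted with limma 3.58.1 in R 4.3.3 (array type as a block, intensity trend, two-sided, 1 residual and 9.65 prior degrees of freedom). The ± is the moderated standard error, borrowed mostly from other genes, and the number of arrays limits the precision. The fit was tested on simulated data. The members, lists and tests were chosen with earlier results of these data known. Named genes are the 7 members, and in each of 7 related lists at most 4 called genes per direction and the brightest of those that did not pass, plus Irf8 and the 3 genes nearest in signal to each enzyme gene. Motifs were searched on both strands. Alternatives changed the normalization, offset, filter, trend, block, probe set rule and arrays used.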

Additional observations from a re-analysis of the deposited data

How the results depend on the processing

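No member was called under any of the 10 alternative settings of normalization, offset, filter, trend, block and probe set rule. Values as deposited called 0 genes of any kind and the dropped block called 1, so those settings could hardly have called a member. Nkg7 was below 0 in all 10 settings and with each array left out, between -1.01 (values as deposited) and -0.21 (with 1 array left out). With values as deposited every member was below 0, so the sign there is not particular to Nkg7. Over the 10 settings its adjusted p in limma ran from 0.0701 under the 60th percentile filter to 0.9998 with the block dropped. The other members changed sign. With scaling alone Mpo was at 0.090 and Prtn3 at 0.13, and with cyclic loess Prtn3 was at 0.025. With the values as deposited Elane was at -0.60, Ctsg at -0.62, Ms4a3 at -0.54 and Srgn at -0.54, since the deposited 430A arrays differed in scale (median log2 ratio -0.98 over all shared probe sets). Within 1 array type, the sign opposed that of the mean for Elane on 430A (-0.086) and for Mpo (0.057), Prtn3 (0.0068) and Ctsg (-0.0067) on MOE430_2. The number of called genes was 579, and it came to 287 with no filter, 330 when the trend was dropped and 1 when the block was dropped. Values as deposited gave 0 calls in limma and 14 genes at an unadjusted p under 0.05. Leaving out each array in turn, in the model without the block, compares arrays of different types. It gave 32 to 36 called genes, and ratios from -0.48 to 0.44 for Mpo, -0.43 to 0.52 for Elane, -0.37 to 0.33 for Prtn3, -0.39 to 0.42 for Ctsg, -0.16 to 0.36 for Ms4a3, -0.44 to 0.62 for Srgn and -0.38 to -0.21 for Nkg7. Ms4a4c, named after its values were seen, was not recomputed under the alternatives. Of the other 17 related genes named as called, 17 were called with scaling alone and with cyclic loess. Offsets of 16 and 200 left 14 and 16 called, averaged probe sets 15, no filter 11 and no trend 11. The 60th percentile filter passed 12 of them, and 12 were called. With 1 array left out 0 to 3 of the 17 were called, each in its direction, and 0 were called with the block dropped. The values as deposited called 0 and turned the sign of Slpi (-0.050), Serpinb1a (-0.14), Cebpa (-0.082), Cebpb (-0.30) and Ms4a6b (-0.15). Related genes that did not pass were not recomputed. The fit with array type as the block sets the 2 arrays of a type against each other, with 1 residual degree of freedom. This matches arrays by type only, and the labels give no pairing of the preparations. On 430A the wild type label names no labelling kit, so a difference in labelling there cannot be told apart from genotype.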

Other observations

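Some genes of the related lists were read only by probe sets of the larger MOE430_2 array, which gives 1 ratio and no test. Arsb, a lysosomal sulphatase, had its brightest probe set at 7653 in Icsbp-deficient and 5581 in wild type GMP (log2 ratio 0.45 with scaling alone), and its other probe sets were at -0.05 and 0.19. Chsy1, a chondroitin synthase, had 1834 against 1610 (0.18). Stx11, a membrane fusion protein of granule release, had 301 against 207 and 154 against 119 on its probe sets (0.45 and 0.27). Unc13d, a priming factor of granule release, had 256 against 258 (-0.01). With the same scaling the median ratio was -0.01 over all shared probe sets and 0.25 over the brightest 189, and the probe sets named here ranked between 408 and 19839 of the 45037 on these arrays.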
